A study of Mus musculus with 24 samples.

Results

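The 9 genes described here encode the inhibin and activin subunits (Inha, Inhba, Inhbb), the activin antagonist follistatin (Fst), anti-Müllerian hormone (Amh) and its type II receptor (Amhr2), and Nodal with its inhibitors Lefty1 and Lefty2. They were taken by name, 9 of the 22367 protein-coding genes annotated on the nuclear chromosomes of the mouse mm9 genome, and all 9 were found. H3K4me3, a histone mark of active and poised promoters, and H3K27me3, the repressive mark laid down by the Polycomb system, were profiled by ChIP-seq in supporting cells of the fetal gonad at E10.5, ahead of sex determination, and at E13.5, once it has taken place. The 24 samples are 2 immunoprecipitations with each of 3 antibodies, the third against total H3, from 4 populations: XY and XX progenitor cells sorted at E10.5 from SF1-eGFP gonads, Sertoli cells sorted at E13.5 from XY Sox9-CFP gonads, and pregranulosa cells, labelled granulosa, sorted at E13.5 from XX TESM-CFP gonads. All mice were of mixed C57BL/6 x CD1 background, cells came from pooled gonads, and Drosophila S2 cells served as carrier chromatin in every immunoprecipitation. The progenitors were sorted with another transgene than the E13.5 cells, so stage and reporter cannot be told apart. Sertoli and pregranulosa cells were also sorted with different transgenes, so sex and reporter cannot be told apart at E13.5.

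Activins are dimers of the beta subunits that signal through SMAD2 and SMAD3, and inhibins pair a beta subunit with the alpha subunit encoded by Inha and oppose activin. Follistatin binds and neutralizes activins. AMH, made by Sertoli cells, causes the Müllerian ducts to regress in males through AMHR2. Nodal shares the activin receptors, and the Lefty proteins, themselves induced by Nodal signaling, restrain it. Promoters that carry H3K4me3 and H3K27me3 together are called bivalent and are usually silent but poised.

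The deposited data are 8 peak lists, 1 per mark and population, each made from both replicates joined, according to the series description and to the file headers where present. There is therefore no spread between replicates and no test between populations, and every difference below is a difference between pooled lists. Overlapping peaks of a list were joined into regions, a promoter was the 4001 bp window of TSS ± 2 kb, and it counted as marked from an overlap of 1 bp with a region. The lists hold positions and no level of enrichment, so "cover" below is the length of a window or gene body lying within regions and not an amount of histone modification. The H3K4me3 lists of XY progenitors, XX progenitors and Sertoli cells rested on 10162534, 49254553 and 31104760 tags and the H3K27me3 lists on 6470151, 33185400 and 44446456. The depth of both pregranulosa lists is unknown. The shallow XY progenitor lists had narrower regions (median 1255 bp against 1517 to 1698 bp for H3K4me3, and 6398 bp against 8017 to 8910 bp for H3K27me3), which moves with every comparison that starts from XY progenitors and whose part in it was not tested.

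The sorted populations carried marks at their defining genes as follows. Of 9 Sertoli markers, H3K27me3 covered 6, 6 and 6 promoters in XY progenitor, XX progenitor and pregranulosa cells and 1 in Sertoli cells. That 1 was Cyp26b1, which had H3K27me3 and no H3K4me3 in every list. Of 7 pregranulosa markers it covered 7 in Sertoli cells and in both progenitors, against 3 in pregranulosa cells, and of 6 early gonad genes it covered 5, 6, 3 and 1 in XY progenitor, XX progenitor, Sertoli and pregranulosa cells. In the same order of lists, H3K4me3 was found at 1, 2, 3 and 3 of 6 germ cell genes, 1, 2, 1 and 2 of 6 endothelial genes, 3, 5, 3 and 5 of 6 steroidogenic genes and 2, 2, 2 and 3 of 4 blood genes, and all 4 mesonephric genes were bivalent in every list. Over all protein-coding promoters, 64.2% to 66.3% had H3K4me3 and 23.0% to 24.8% had H3K27me3, depending on the list. Some H3K4me3 calls rested on a short overlap, such as 100 bp at Insl3 in XY progenitors. H3K4me3 at a promoter is not expression, and RNA was not measured.

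The sequence around the TSS set the 9 genes apart from each other. The ratio of observed to expected CpG dinucleotides over TSS ± 500 bp was 0.83 at Fst and 0.79 at Inhbb, above the upper quartile of all protein-coding genes (0.77). It was 0.54 at Inhba and 0.47 at Nodal, near the median of 0.55. At Lefty2 (0.28), Lefty1 (0.27), Inha (0.25), Amhr2 (0.19) and Amh (0.14) it lay close to or below the lower quartile of 0.23. Fst held 100 CpG dinucleotides in these 1001 bp and Amh held 13. Fst and Inhbb, the 2 genes whose window lost H3K27me3 cover in at least 1 lineage, were the most CpG-rich of the 9. The 3 genes without H3K27me3 at E10.5 were the most CpG-poor, but by little (0.25 at Inha against 0.27 at Lefty1). Whether CpG content goes with the marks was not tested, here or over all genes. The ratios also depend on the start used. Inha has a RefSeq start 532 bp away, and Lefty1 and Lefty2 have second annotated starts 1849 and 1350 bp downstream.

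**Figure D1:**
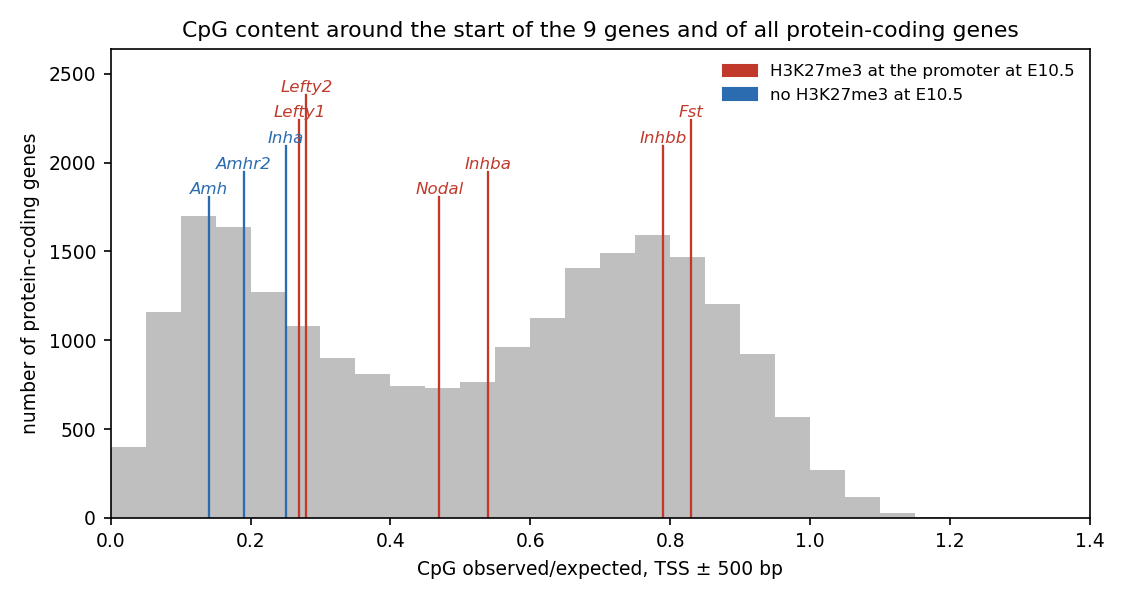
Histogram of the ratio of observed to expected CpG over TSS ± 500 bp (horizontal axis, no unit) for the 22367 protein-coding genes (vertical axis, number of genes), with a line at each of the 9 genes. Genes with H3K27me3 at the promoter at E10.5 (red) run from 0.27 (Lefty1) to 0.83 (Fst), and those without it (blue) from 0.14 (Amh) to 0.25 (Inha).

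Promoter sequences from RefSeq (GRCm38.p6) were held for 5 of the 9 genes, and all 5 were found unchanged in mm9 by exact match. No such sequence was held for Fst, Amh, Lefty1 and Lefty2, so no match and no motif search was made for them. The 250 bases upstream of the start are printed for Inhbb, which lost H3K27me3 in Sertoli cells, for Inhba and Nodal, which kept it in all 4 populations, and for Amhr2, which never had it, in 5′ to 3′ direction and with each CpG in capitals. The mm9 positions are chr1:121318826-121319075 on the minus strand, and chr13:16103434-16103683, chr10:60880470-60880719 and chr15:102275548-102275797 on the plus strand. They held 21, 3, 3 and 5 CpG dinucleotides.
Inhbb: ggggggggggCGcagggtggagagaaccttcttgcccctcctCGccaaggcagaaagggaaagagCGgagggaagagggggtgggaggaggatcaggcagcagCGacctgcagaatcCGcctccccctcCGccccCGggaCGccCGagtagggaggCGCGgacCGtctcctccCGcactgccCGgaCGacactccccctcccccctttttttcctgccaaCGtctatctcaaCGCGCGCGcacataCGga
Inhba: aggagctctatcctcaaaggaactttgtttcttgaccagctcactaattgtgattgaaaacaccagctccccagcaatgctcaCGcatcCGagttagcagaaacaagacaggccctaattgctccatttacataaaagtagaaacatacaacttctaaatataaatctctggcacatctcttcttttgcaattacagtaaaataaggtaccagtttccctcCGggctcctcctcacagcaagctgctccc
Nodal: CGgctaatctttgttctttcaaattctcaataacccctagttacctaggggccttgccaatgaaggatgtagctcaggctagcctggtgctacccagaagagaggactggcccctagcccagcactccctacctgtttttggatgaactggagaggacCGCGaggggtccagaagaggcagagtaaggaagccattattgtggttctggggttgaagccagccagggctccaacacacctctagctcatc
Amhr2: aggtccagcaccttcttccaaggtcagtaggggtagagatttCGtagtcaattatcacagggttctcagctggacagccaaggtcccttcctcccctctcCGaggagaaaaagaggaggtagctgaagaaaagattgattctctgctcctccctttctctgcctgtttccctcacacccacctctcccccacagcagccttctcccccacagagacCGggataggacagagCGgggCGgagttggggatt

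For regulatory letters, 4 motifs were searched on both strands of the 300-base windows (250 bases before to 50 after the start) of the 5 matched genes. AAGGTCA, bound by NR5A1 (SF1), occurs in 4.72% of the 32851 RefSeq promoters of this length and was found at Amhr2, 231 bases upstream of the start (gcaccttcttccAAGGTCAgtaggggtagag, motif in capitals). GATAA, the core letters of sites for GATA factors, was held by 25.4% of promoters and also found at Amhr2, on the minus strand 199 bases upstream. ATTGTT (a SOX core, 10.7% of promoters) and TGACGTCA (the cyclic AMP response element, 1.79%) were not among these letters for any of the 5. For Inha the RefSeq start lies 532 bp downstream of the GENCODE start used here, and its window is not printed.

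H3K4me3 lay in the promoter window of 9 of 9 genes in each population, where 64.2% (XY progenitor), 66.0% (XX progenitor), 64.9% (Sertoli) and 66.3% (pregranulosa) of all protein-coding promoters had it. H3K27me3 was present at 6, 6, 5 and 7 of 9, against 23.0%, 24.8%, 23.5% and 23.7% of all. As H3K4me3 was present at all 9, these 6, 6, 5 and 7 genes were also the bivalent ones, against 20.4%, 22.4%, 18.7% and 20.4% of all promoters. The 6 genes bivalent at E10.5 were the same in both sexes: Inhba, Inhbb, Fst, Nodal, Lefty1 and Lefty2. Inhbb was bivalent in pregranulosa and not in Sertoli cells, Amh had H3K27me3 in pregranulosa cells alone, and Inha and Amhr2 had none in any list. The window is wide, and at the TSS base itself H3K4me3 was found at 5, 6, 7 and 5 of 9 genes (59.2%, 62.8%, 61.1% and 62.5% of all) and H3K27me3 at 6, 6, 5 and 5 of 9 (20.6%, 23.0%, 20.8% and 21.5%).

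**Figure D2:**
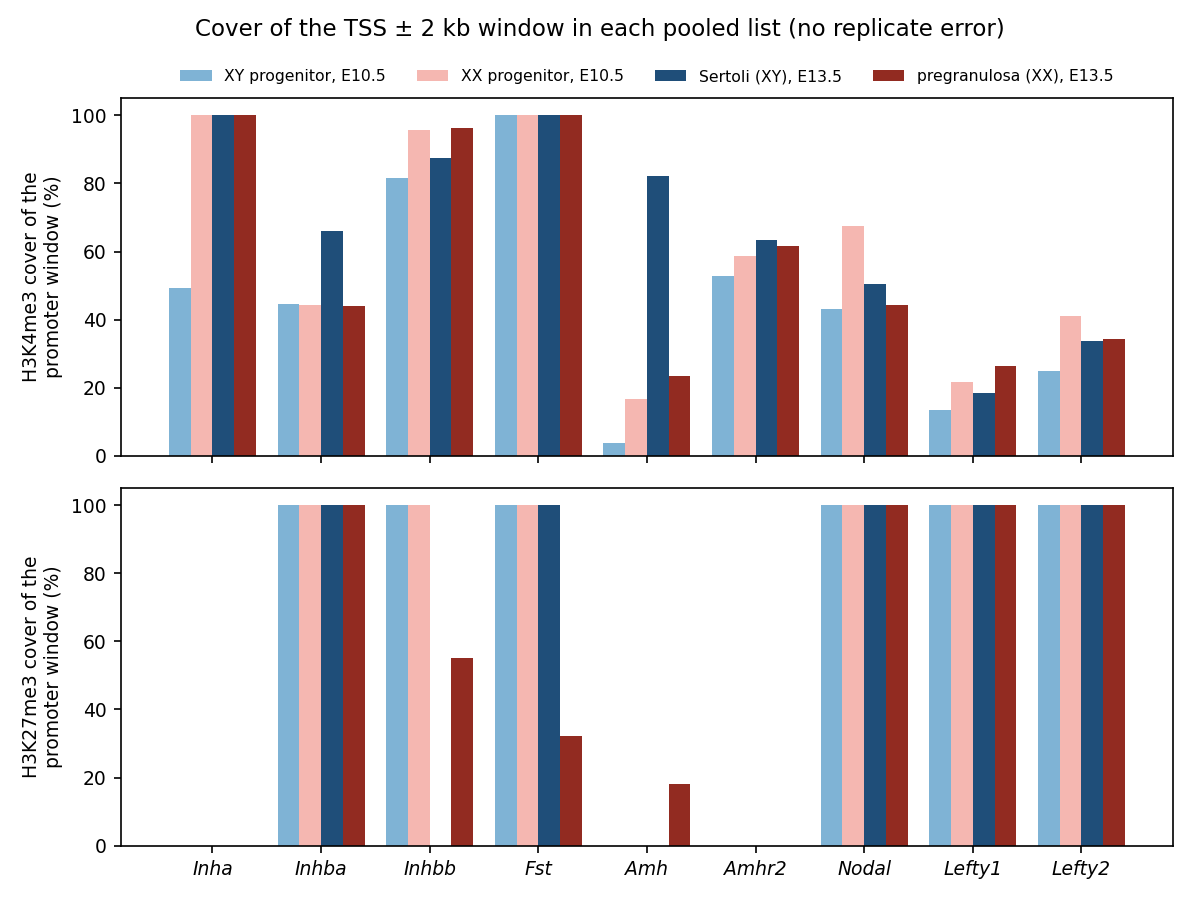
Percent of the TSS ± 2 kb window covered by H3K4me3 (upper axis) and H3K27me3 (lower axis) regions for each of the 9 genes, with a bar for each of the 4 pooled lists and no error bars because replicates were pooled. H3K27me3 fills the window or is absent, except at Inhbb (55.2%), Fst (32.1%) and Amh (18.1%) in pregranulosa cells.

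Over the 9 genes the median H3K4me3 cover of the window was 1780, 2354, 2644 and 1775 bp in XY progenitor, XX progenitor, Sertoli and pregranulosa cells, beside 1539, 2243, 1879 and 2145 bp over all protein-coding genes. The median H3K27me3 cover was 4001 bp in the first 3 and 2209 bp in pregranulosa cells, beside 0 bp over all genes in each list. Across all genes with H3K27me3 in XY progenitors, 22.6% had lost it in Sertoli cells, and 7.42% of those without had gained it. From XX progenitor to pregranulosa cells these shares were 17.9% and 4.38%. Among the 9 genes, 1 of 6 (Inhbb) lost it in the XY lineage and 0 of 3 gained it, while 0 of 6 lost it in the XX lineage and 1 of 3 (Amh) gained it. At E13.5, 5.01% of all promoters had H3K27me3 in pregranulosa and not in Sertoli cells (Inhbb and Amh, 2 of 9) and 4.90% the reverse (0 of 9). Numbers this small do not separate the 9 genes from the background.

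Inhbb (chromosome 1, 121312042 to 121318825, minus strand, ENSMUSG00000037035.5) encodes the beta-B subunit. In both progenitors its whole window was covered by H3K27me3, in regions of 11574 bp (XY) and 13010 bp (XX) that covered 94.4% and 100% of the gene body. In Sertoli cells no H3K27me3 lay within 16.0 kb of the TSS. A loss of the full window like this one occurred at 478 genes (2.14% of all). H3K4me3 was present over the TSS in all 4 lists, in regions of 5145, 5609, 10752 and 6716 bp in XY progenitor, XX progenitor, Sertoli and pregranulosa cells. The Sertoli region covered the whole gene, and 21 of 14514 marked promoters (0.145%) had a region at least as wide in that list.

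In pregranulosa cells Inhbb still had H3K27me3, but it had drawn back from the gene. A region of 5001 bp reached from 4792 bp upstream to 208 bp downstream of the TSS and covered 2209 bp of the window and 3.08% of the gene body. This region was the width of 1 peak as called, and 16.9% of the regions in that list were no wider. When only the widest 75% of each list were kept, or as many regions as in the shortest list, it was lost, and Inhbb then had no H3K27me3 at E13.5 in either sex. The difference between Sertoli and pregranulosa cells at Inhbb thus rests on a region of that minimum width, whereas the shrinkage from E10.5 in both lineages does not.

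Fst (chromosome 13, 115242470 to 115249159, minus strand, ENSMUSG00000021765.6) is a pregranulosa gene in the fetal gonad. H3K4me3 filled its window in all 4 lists, in regions of 4445 bp (XY progenitor), 5656 bp (XX progenitor), 5889 bp (Sertoli) and 7887 bp (pregranulosa). The share of the gene body under H3K4me3 was 36.1%, 52.4%, 52.8% and 84.2% in that order, so the pregranulosa region reached furthest into the gene. H3K27me3 filled the window in both progenitors and in Sertoli cells, covering 83.0%, 48.8% and 100% of the gene body, and the Sertoli region of 14047 bp was the widest of the 4.

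In pregranulosa cells the H3K27me3 region at Fst ended 717 bp upstream of the TSS, leaving 1284 bp of the window and none of the gene body covered. A decrease of this size from XX progenitors was seen at 797 genes (3.56% of all). The call of Fst as bivalent in pregranulosa cells therefore comes from the upstream flank, and at the TSS base Fst had H3K4me3 alone. The primer pair with which the study assayed Fst by ChIP-qPCR, reported for purified adult Sertoli cells, lies across this edge. In mm9 it spans chr13:115249733-115249938, 206 bp from 779 to 574 bp upstream of the TSS, and the primers are given 5′ to 3′.
forward: agagagagagaggagtcg
reverse: tccacaagtcagaagcaa
All 206 bp lay within H3K4me3 regions in every list and within H3K27me3 regions in both progenitors and in Sertoli cells. Of the 206 bp, 63 lay within H3K27me3 in pregranulosa cells. Per the study's methods H3K27me3 peaks were called at a size of 5000 bp, far longer than the 206 bp. How precisely the edge is placed was not tested.

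Inhba (chromosome 13, 16103684 to 16119044, plus strand, ENSMUSG00000041324.7), which encodes the beta-A subunit, kept H3K27me3 across its window in all 4 lists. The regions measured 15414, 15369, 15998 and 21827 bp in XY progenitor, XX progenitor, Sertoli and pregranulosa cells. In the first 3 they ended within the gene and covered 72.1%, 65.2% and 69.6% of it, and in pregranulosa cells the region ran past its 3′ end and covered 100%. H3K4me3 formed a narrow region over the TSS, covering 1780, 1778, 2644 and 1762 bp of the window. The Sertoli value stood apart through an extension upstream to 1358 bp from the TSS, where the other lists reached 199 to 481 bp. A surplus over pregranulosa cells of this size (882 bp) was found at 390 genes (1.74% of all). Further H3K4me3 regions lay inside the gene in every list, between 4202 and 7245 bp and between 11081 and 12596 bp from the TSS. The former lay within the H3K27me3 domain in every list, the latter in pregranulosa cells alone. Sertoli cells had another H3K4me3 region at the 3′ end, from 14477 to 15477 bp.

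Inha (chromosome 1, 75503652 to 75506941, plus strand, ENSMUSG00000032968.4) encodes the alpha subunit that turns a beta subunit into inhibin. No list had H3K27me3 near it, the nearest region lying 16.9 to 36.4 kb from the TSS. Its window held 1967 bp of H3K4me3 in XY progenitors and was filled (4001 bp) in XX progenitor, Sertoli and pregranulosa cells. The H3K4me3 region measured 6872 bp in XX progenitors and 8968 bp in pregranulosa cells and covered the whole gene in each list but that of XY progenitors. In Sertoli cells the region measured 8639 bp, a width reached at 95 of 14514 marked promoters (0.655%). In XY progenitors the region ended 34 bp upstream of the Inha TSS, and a second region of 1001 bp covered the 3′ end of the gene. Obsl1, which encodes a cytoskeletal adaptor, starts 625 bp upstream of Inha on the opposite strand, so H3K4me3 in this window cannot be assigned to either gene, and this holds most for the XY progenitor region. XY progenitors also gave the shallowest of the 3 H3K4me3 lists of known depth, and the part of depth in the difference was not tested.

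**Figure D3:**
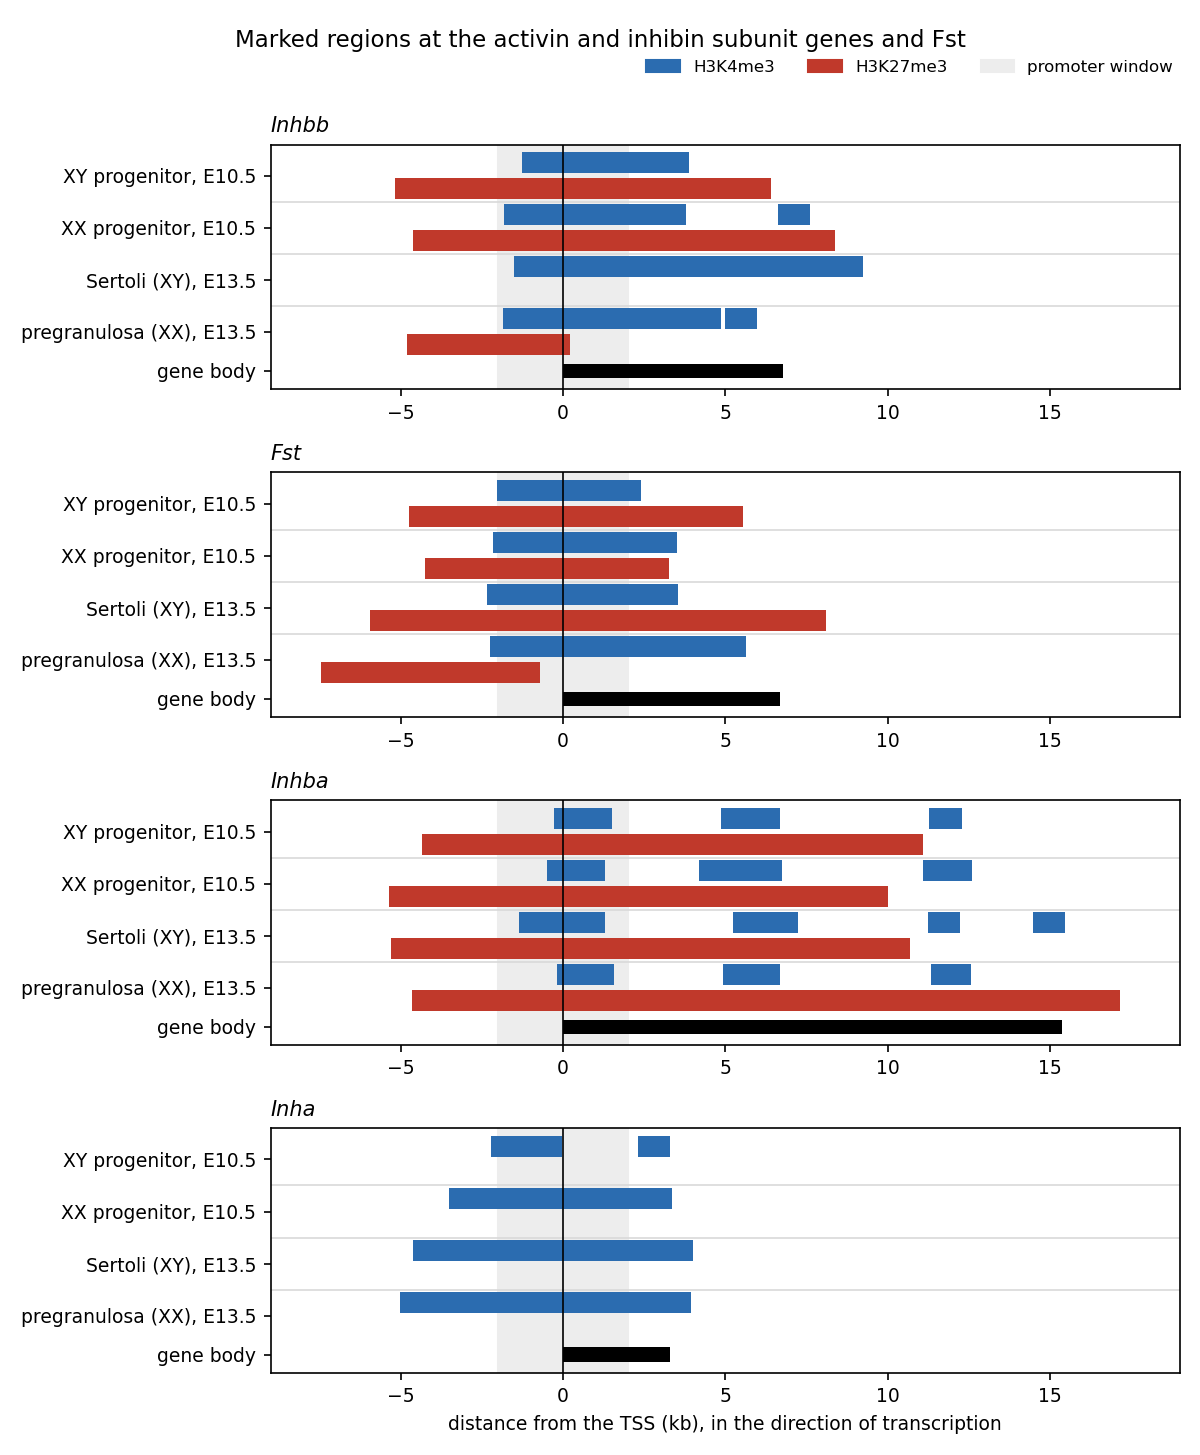
Regions of H3K4me3 (blue) and H3K27me3 (red) that meet the promoter window (grey) or gene body (black) of Inhbb, Fst, Inhba and Inha in the 4 pooled lists, drawn to scale by distance from the TSS in kb in the direction of transcription. H3K27me3 is missing from Inhbb in Sertoli cells and ends 717 bp upstream of the Fst TSS in pregranulosa cells. It fills the Inhba window in every list, spans the whole Inhba gene in pregranulosa cells alone, and is missing from Inha in every list.

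Amh (chromosome 10, 80267993 to 80270393, plus strand, ENSMUSG00000035262.4) gained H3K4me3 at its start in Sertoli cells. The H3K4me3 cover of its window was 150 bp in XY progenitors, 664 bp in XX progenitors, 3294 bp in Sertoli cells and 944 bp in pregranulosa cells. The Sertoli value was far above the other 3. A gain of this size from XY progenitors (3144 bp) occurred at 24 genes (0.107% of all), and a surplus over pregranulosa cells of this size (2350 bp) at 20 genes (0.0894%). In the other 3 lists the H3K4me3 region began 1851, 1337 and 1057 bp downstream of the TSS and ran on to between 5667 and 5903 bp, past the 3′ end of Amh, which lies 2400 bp from its TSS, into the 3′ end of Jsrp1. In Sertoli cells the region began 1187 bp upstream of the TSS and ended at nearly the same place, 5877 bp downstream. In those 3 lists Amh thus counted as marked only through the width of the window, and its TSS was covered in Sertoli cells alone, a pattern shown by 107 genes (0.478% of all).

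The second Sertoli region in the window, from 10036 to 1895 bp upstream, belongs to the Sf3a2 side, a splicing factor gene whose body overlaps the window by 1677 bp. H3K27me3 was not found within 26.2 kb of Amh in XX progenitors or Sertoli cells or within 28.1 kb in XY progenitors. In pregranulosa cells a region of 5001 bp began 1276 bp downstream of the TSS and covered 725 bp of the window and 46.9% of the gene body. It left the TSS uncovered, lay over the downstream H3K4me3 region, and was again the width of 1 peak. It dropped out of the window of TSS ± 1 kb and when only the widest regions were kept.

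Amhr2 (chromosome 15, 102275798 to 102285061, plus strand, ENSMUSG00000023047.4) carried H3K4me3 over its TSS in all 4 lists, with 2107, 2354, 2531 and 2470 bp of the window covered in XY progenitor, XX progenitor, Sertoli and pregranulosa cells. The share of its gene body under H3K4me3 was 16.1%, 24.0%, 27.5% and 52.4%, highest in pregranulosa cells, where a second region adjoined the first. The nearest H3K27me3 lay 68.1 to 70.9 kb away. The receptor gene was therefore in the H3K4me3-only state in both sexes and at both stages, while the start of the hormone gene had H3K4me3 in Sertoli cells alone.

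**Figure D4:**
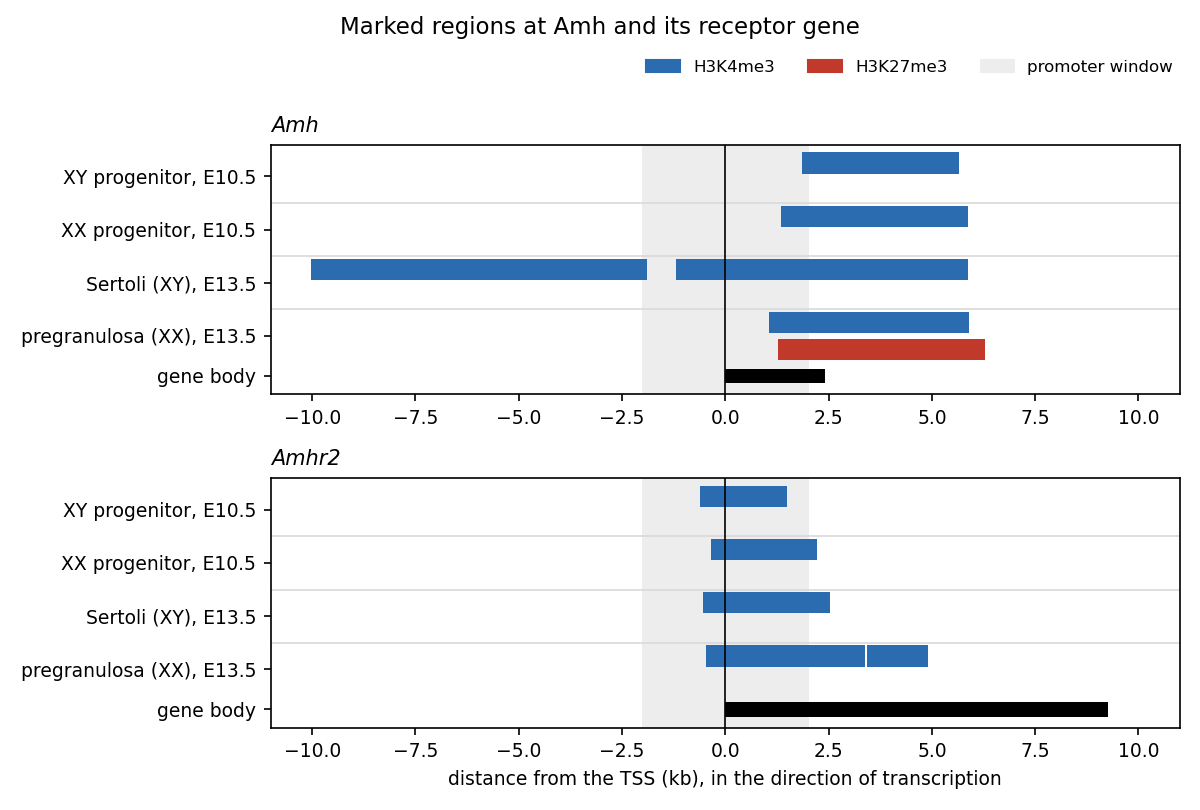
Regions of H3K4me3 (blue) and H3K27me3 (red) that meet the promoter window (grey) or gene body (black) of Amh and Amhr2 in the 4 pooled lists, drawn to scale by distance from the TSS in kb. Regions that meet neither are not drawn; the H3K4me3 region over the Amh TSS is seen in Sertoli cells alone, and H3K27me3 in pregranulosa cells begins 1276 bp downstream.

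Nodal (chromosome 10, 60880720 to 60888086, plus strand, ENSMUSG00000037171.6) was bivalent in all 4 populations. Its H3K27me3 regions measured 10831, 10241, 10555 and 10223 bp in XY progenitor, XX progenitor, Sertoli and pregranulosa cells and so barely differed, although the median region width of the lists ranged from 6398 to 8910 bp. H3K4me3 covered 1723, 2698, 2026 and 1775 bp of the window in the same order, highest in XX progenitors. Of the 3 lists of known depth that of XX progenitors was the deepest, and the part of depth in this order was not tested. In pregranulosa cells it began 93 bp downstream of the TSS, and in the other 3 lists it covered the TSS. The 3 lists other than XX progenitor also had a 1001 bp H3K4me3 region near the 3′ end of the gene.

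Lefty1 (chromosome 1, 182865153 to 182868531, plus strand, ENSMUSG00000038793.8) and Lefty2 (chromosome 1, 182823239 to 182829234, plus strand, ENSMUSG00000066652.5) start 41914 bp apart, and their coding sequences are identical at 1017 of 1107 aligned positions (91.9%), so reads in the coding exons may be shared between them. H3K27me3 filled the window and the whole gene body of both in every list. The Lefty1 regions measured 20181, 21751, 21086 and 23549 bp in XY progenitor, XX progenitor, Sertoli and pregranulosa cells, and the Lefty2 regions 13986, 15399, 25383 and 29834 bp. The Lefty1 region changed little, whereas the Lefty2 region was wider in both E13.5 lists, mainly through its upstream end, which lay 7705 and 8811 bp (XY and XX progenitors) and 17105 and 21000 bp (Sertoli and pregranulosa cells) from the TSS. The downstream end lay at 6280 and 6587 bp in the progenitors and at 8277 and 8833 bp at E13.5. H3K27me3 regions at all marked promoters were wider at E13.5 too. Their medians were 8011 and 9352 bp in XY and XX progenitors and 11566 and 11167 bp in Sertoli and pregranulosa cells. The XY tags also rose from 6470151 to 44446456, and the part of depth was not tested. The Lefty1 domain reached the promoter of Tmem63a, which starts 7322 bp downstream of the Lefty1 TSS and was bivalent in every list.

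H3K4me3 at the Lefty genes lay downstream of the first annotated start, which is the TSS used here. At Lefty1 it began 950 to 1465 bp downstream of the TSS and covered 536 to 1051 bp of the window. At Lefty2 it began 362 to 940 bp downstream and covered 1001 to 1639 bp. Neither TSS was covered by H3K4me3 in any list, and Lefty1 had none within 1 kb of its TSS outside pregranulosa cells. Each gene has a second annotated transcript start, 1849 bp (Lefty1) and 1350 bp (Lefty2) further downstream, and H3K4me3 covered both of these in all 4 lists. In the window around the second start of Lefty1 the H3K4me3 cover was 31.7%, 59.8%, 47.1% and 42.3% in XY progenitor, XX progenitor, Sertoli and pregranulosa cells, where the window used here gave 13.4%, 21.6%, 18.4% and 26.3%. At Lefty2 the second start gave 25.0%, 59.5%, 38.9% and 47.2%, against 25.0%, 41.0%, 33.7% and 34.4%. At the 5′ end of the gene record the 9 genes thus split into 6 with H3K4me3 in at least 3 of the 4 lists (Inha, Inhba, Inhbb, Fst, Amhr2 and Nodal), Amh with H3K4me3 in Sertoli cells alone, and the Lefty pair with H3K4me3 at the second start only.

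**Figure D5:**
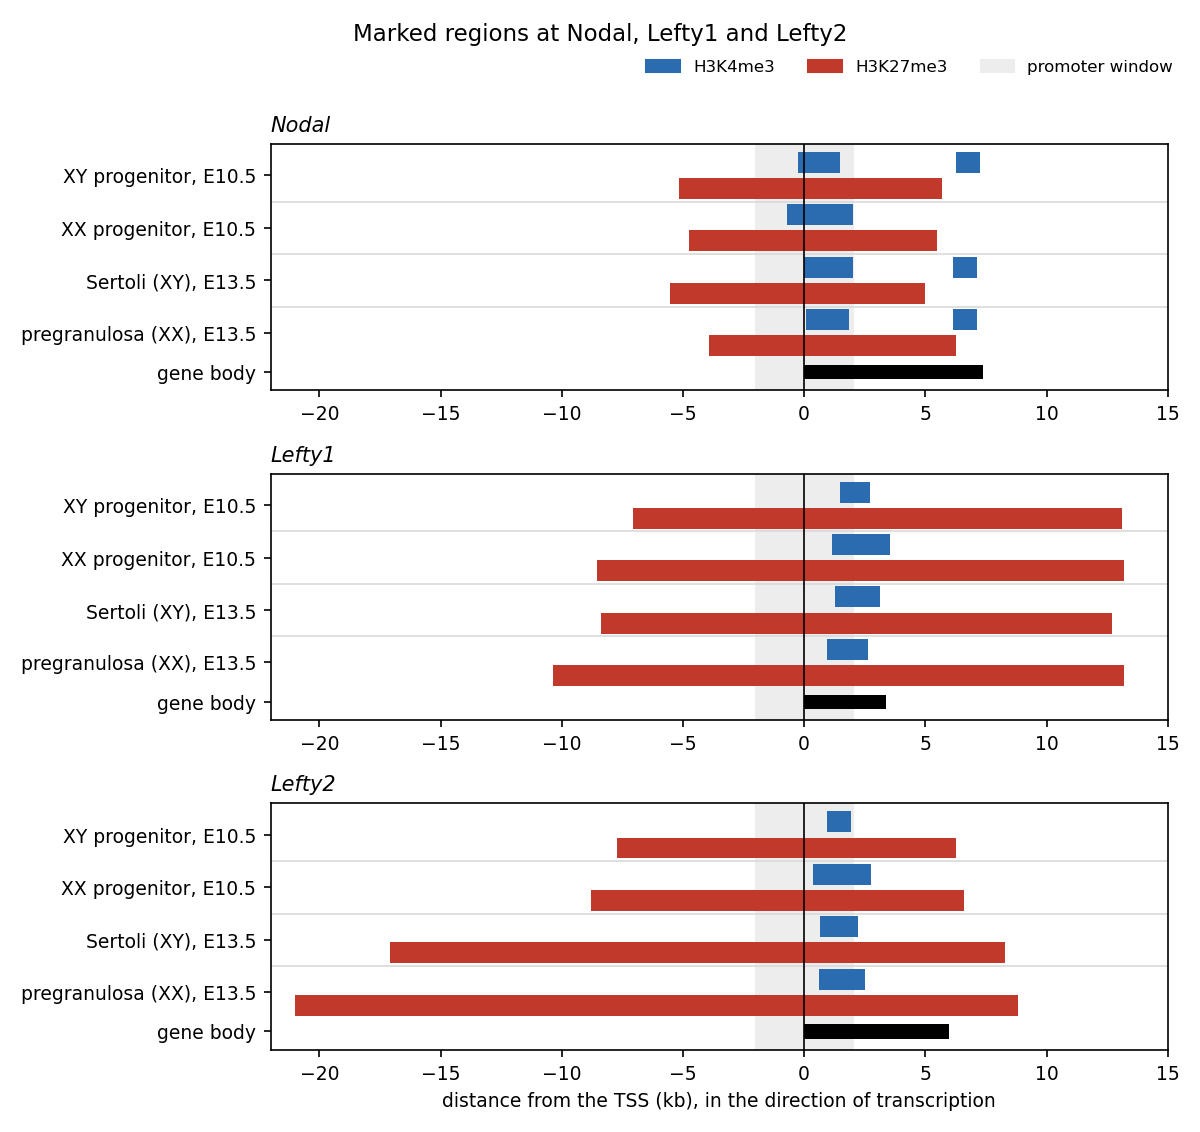
Regions of H3K4me3 (blue) and H3K27me3 (red) that meet the promoter window (grey) or gene body (black) of Nodal, Lefty1 and Lefty2 in the 4 pooled lists, drawn to scale by distance from the TSS in kb. H3K27me3 spans all 3 starts in every list, the Lefty2 region reaches 17105 and 21000 bp upstream at E13.5, and H3K4me3 lies downstream of the Lefty TSS drawn at 0.

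The wider pathway was followed through 34 further genes. H3K27me3 was present at 13, 13, 14 and 13 of 34 in XY progenitor, XX progenitor, Sertoli and pregranulosa cells, and H3K4me3 at 29, 30, 30 and 31, beside the 23.0% to 24.8% and 64.2% to 66.3% of all promoters. The receptors and coreceptors were bivalent at 7, 7, 6 and 6 of 13, and among the signal transducers H3K27me3 covered 1, 1, 2 and 2 of 9. Smad1 to Smad7 were H3K4me3-only in every list. Acvr1b, the type I receptor through which activins signal, had 2528 and 2399 bp of H3K27me3 in XY and XX progenitors and none in either E13.5 list. Tgfb3, a TGF-beta ligand, likewise went from 4001 bp in both progenitors to 0 bp at E13.5. In all, 2 of 13 lost the mark in the XY lineage and 3 of 13 in the XX lineage. Of the other genes of the 34, 3 gained it in each lineage. Across all promoters, 22.6% and 17.9% of those with the mark lost it and 7.42% and 4.38% of those without gained it. The losses were thus near the background, and 3 gains in a lineage are too few to separate these genes from it.

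Other genes of this list differed between the E13.5 populations. Fstl3, a follistatin-like antagonist, had 2747, 3465 and 2369 bp of H3K27me3 in XY progenitors, XX progenitors and Sertoli cells, against 0 bp in pregranulosa cells. Bambi, a pseudoreceptor that dampens TGF-beta signaling, had H3K27me3 in pregranulosa cells alone (2464 bp), which is the pattern of calls found at Amh. Inhbe, a further beta subunit gene, had it in Sertoli cells alone (3340 bp), and Mstn, the muscle growth inhibitor, had H3K4me3 in pregranulosa cells alone (1390 bp). Gdf1, a Nodal partner, and Smad9, a receptor-regulated SMAD, were H3K4me3-only in both progenitors and had 4001 bp of H3K27me3 in both E13.5 lists.

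The pattern of 8 calls (2 marks in 4 lists) was shared by many genes for most of the 9. Inha and Amhr2 had the pattern of 8215 genes (36.7%), with 13 of the 34 pathway genes among them, including Acvr2a, Acvr2b and Smad2. Inhba, Fst, Nodal, Lefty1 and Lefty2 had that of 3052 genes (13.6%). Among the pathway genes these included Acvr1c, Tdgf1, Cfc1 and Foxh1, a Nodal receptor, its coreceptors and transcription factor. Gdf11, Tgfb1, Tgfb2, Bmpr1b, Tgfbr1 and Tgfbr3 shared it as well. The Inhbb pattern was shared by 354 genes (1.58%) and none of the pathway list, and the Amh pattern by 148 genes (0.662%). Each of these patterns rests on a pregranulosa H3K27me3 region of 5001 bp, which was lost when only the widest regions were kept. Amh then had the calls of Inha and Amhr2. By summed difference in covered promoter bases over the 8 lists, the closest gene was Fgf11 to Fst (136 bp), Gmfg to Amhr2 (152 bp), Hrh3 to Nodal (185 bp), BC031781 to Inha (215 bp), Sema4f to Lefty2 (240 bp), Astl to Lefty1 (457 bp), Abhd15 to Inhbb (1313 bp) and Dapp1 to Amh (4737 bp). Amh and Inhbb had the most distant of these, but their patterns also gave the fewest genes to choose from (148 and 354). The distances therefore do not show that either gene is unusual.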

How the data were processed

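H3, H3K4me3 and H3K27me3 ChIP-seq was performed by the authors on 2 replicates of each of 4 sorted populations. Per the submitters' processing notes and the study's methods, reads were trimmed with Trim Galore, aligned to mm9 with Bowtie, handled with SAMtools, and peaks were called with HOMER (findPeaks, histone style) with H3 as input. The methods describe peak calling on each replicate, whereas the lists used here were made from both replicates joined. The file headers give peak sizes of 1000 bp (H3K4me3) and 5000 bp (H3K27me3), at least 4 times the input, and a Poisson p-value of 1.00e-04. Versions are not given in the sources used here. The score deposited with each peak is constant, so presence alone was used. The 2 pregranulosa lists have no header and no score.

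Peaks were read with Python 3.11.15, joined where they overlapped, and set against GENCODE M1 genes on the same build (NCBIM37), with the TSS at the 5′ end of the gene record. No peak ran past a chromosome end of that genome. Overlap code was tested on simulated regions and against bedtools 2.31.1. Coordinates count from 1. No test was made between populations, since replicates were pooled. Genes named in the text were the 9 genes, neighbours, pathway genes whose marks changed or that share a pattern of calls, and the nearest genes by cover, by fixed rules, with some of these not reported here. The 9 genes and all lists were chosen with earlier results of these data known. 7 alternatives set in advance and 1 chosen after seeing the data (the TSS base alone) were tried.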

Additional observations from a re-analysis of the deposited data

Results flagged for a closer look

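9 quantities moved in opposite directions in the 2 lineages between E10.5 and E13.5. The differences were not tested, since each rests on 1 pooled list per population, and with 1 list a group any opposite pair qualifies. The H3K4me3 cover of the promoter window changed, from XY progenitor to Sertoli and from XX progenitor to pregranulosa cells, by 864 and -16 bp at Inhba, by 303 and -923 bp at Nodal and by 349 and -262 bp at Lefty2. The H3K4me3 cover of the gene body changed by 858 and -789 bp at Inhba, by 614 and -550 bp at Lefty1 and by 557 and -489 bp at Lefty2. With TSS ± 1 kb the change at Nodal was -11.3 and -39.5 percentage points of the window, a fall in both lineages. In all 6 cases measured as above the XY value rose, and the tags behind the H3K4me3 list rose from 10162534 to 31104760 in that lineage, whose part was not tested. The H3K27me3 cover of the gene body changed by -386 and 5339 bp at Inhba, by 1140 and -3267 bp at Fst and by -662 and 792 bp at Nodal. At Fst the XY tags rose as well, from 6470151 to 44446456, and the part of depth was not tested there or at Inhba and Nodal.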

How the results depend on the processing

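No paired analysis was possible because replicates were pooled before peaks were called and no result comes from a test. Joining regions up to 1 kb apart and using any transcript start moved none of the 32 counts and medians by over 1.5 times. Requiring 500 bp gave 1 gene with H3K4me3 in Sertoli and not in XY progenitors (Amh) in place of 0. With TSS ± 1 kb, 1 gene had H3K4me3 in Sertoli and not in XY progenitors (Amh), 1 in Sertoli and not in pregranulosa cells (Amh), 1 in pregranulosa and not in Sertoli cells (Lefty1) and 1 in pregranulosa and not in XX progenitors (Lefty1). H3K27me3 then remained in pregranulosa and not in Sertoli cells at 1 gene (Inhbb), was gained in pregranulosa cells at 0, and the median H3K4me3 cover in Sertoli cells was 100%. Keeping the widest 75% of regions, or equal numbers, gave 1 gene losing H3K27me3 from XX progenitor to pregranulosa cells (Inhbb), 0 gaining it, 0 with it in pregranulosa and not in Sertoli cells, and a median pregranulosa cover of 32.1%. Joining regions up to 5 kb apart raised the median H3K4me3 cover to 95.6% (XX progenitor) and 100% (Sertoli and pregranulosa). At the TSS base alone, 5 genes had H3K4me3 in XY progenitors and 5 in pregranulosa cells, and 3 were bivalent in Sertoli and 2 in pregranulosa cells. There, 1 gene had H3K27me3 in Sertoli and not in pregranulosa cells and 1 lost it from XX progenitor to pregranulosa cells (Fst in both), 1 had it in pregranulosa and not in Sertoli cells (Inhbb), and 0 gained it in pregranulosa cells. For H3K4me3 at the TSS base, 2 genes had it in Sertoli and not in XY progenitors (Inha and Amh), 2 in Sertoli and not in pregranulosa cells (Amh and Nodal) and 1 in XX progenitors and not in pregranulosa cells (Nodal). Reversed differences in H3K4me3 cover were Sertoli minus XY progenitor with TSS ± 1 kb at Amhr2 (-4.40 percentage points) and Nodal (-11.3), and, with any transcript start, Lefty1 in Sertoli minus pregranulosa (4.77) and pregranulosa minus XX progenitor cells (-17.5). Replicate spread is unknown, and so is the depth of the pregranulosa lists, which limits every absence of a mark there.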
